A study of Gallus gallus with 12 samples.

Results

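A set of 67 genes of the hen oviduct was abundant in the uterus of 300-day-old layers. Each was at least 4-fold lower in the 300-day magnum and in uterus replicates 2 and 3 at 120 days. They were selected on measured values, those of the 300-day uterus, the 300-day magnum and uterus replicates 2 and 3 at 120 days, among the 18241 numbered genes of the deposited table, which lists 19820 genes in all. A member had to average at least 200 scaled counts over the 3 uterus libraries at 300 days. Its lowest 300-day uterus value also had to reach at least 4 times the highest value (plus 1) of uterus replicates 2 and 3 at 120 days, and the same multiple of the highest 300-day magnum value (plus 1). A scaled count is a read count that had already been brought to a common level of a typical gene before deposition. Of 9489 numbered genes past the level of 200, 259 passed against the 300-day magnum, 130 passed against uterus replicates 2 and 3 at 120 days, and 67 passed both.

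The libraries came from Lohmann layers, a commercial laying strain of chicken, in 4 groups of 3: uterus at 300 days, uterus at 120 days, magnum at 300 days and magnum at 120 days. The series title places the hens before and during lay, and the labels state no treatment or genotype and do not say whether libraries came from separate hens. The p-values below therefore measure sample-to-sample spread only, some of which may be technical. In bulk tissue, fewer cells of a type and less RNA per cell cannot be told apart.

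The uterus, or shell gland, is where the egg receives its calcified shell. Its lining moves calcium and bicarbonate into the fluid around the egg and secretes matrix proteins that shape the mineral, while the magnum further up the tract secretes egg white. Both segments grow and differentiate under ovarian steroids as a hen comes into lay. The table identifies its genes by number only, and 0 of its 19820 identifiers matched the chicken reference table used here, so that no role, name, position or tissue marker can be given for a member, and the tissue labels could not be checked against known markers.

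The scaled counts of a library summed to 16376839 to 17274374 in the 300-day uterus, 14543795 to 15468376 in the 120-day uterus, 44995822 to 77432154 in the 300-day magnum and 14499548 to 25071610 in the 120-day magnum. Such sums do not give the depth. Reads were estimated at 23100000 to 32600000 for the 300-day magnum and 21500000 for magnum replicate 1 at 120 days, and depth is not known for the remaining 8 libraries. Replicate 1 stood apart in both segments at 120 days: in the magnum its total was 25071610, against 14499548 and 14557061 for replicates 2 and 3, and in the uterus it held far more of the 67 genes, as given next.

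Together the 67 genes made up 7.73%, 8.39% and 8.67% of the 3 uterus libraries at 300 days. At 120 days they made up 3.22% of uterus replicate 1, 0.271% of replicate 2 and 0.706% of replicate 3. A few abundant members weigh most in such shares. In uterus replicate 1 at 120 days gene13558 held 139125 and gene18927 held 90244 of the members' 470894 scaled counts. In the magnum the shares were 0.0543%, 0.0345% and 0.0676% at 300 days, and 0.0795%, 0.209% and 0.329% at 120 days. These magnum shares divide by column totals that differ widely between the ages, so no age change is read from them. The summed scaled counts of the members overlapped in the magnum. They were 33805, 26730 and 30439 at 300 days and 19928, 30236 and 47900 at 120 days. The 300-day uterus was thus above every other library, and uterus replicate 1 at 120 days lay between it and all the rest. The 300-day contrasts follow from the rule. In the limma fit described below, 45 of the 67 were called higher in the uterus at 300 than at 120 days, where 6.54% of all genes tested were. Toward the uterus against the magnum at 300 days the count was 64, where 12.9% of all genes tested were called higher. These counts describe the choice of genes and carry no further weight.

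**Figure D1:**
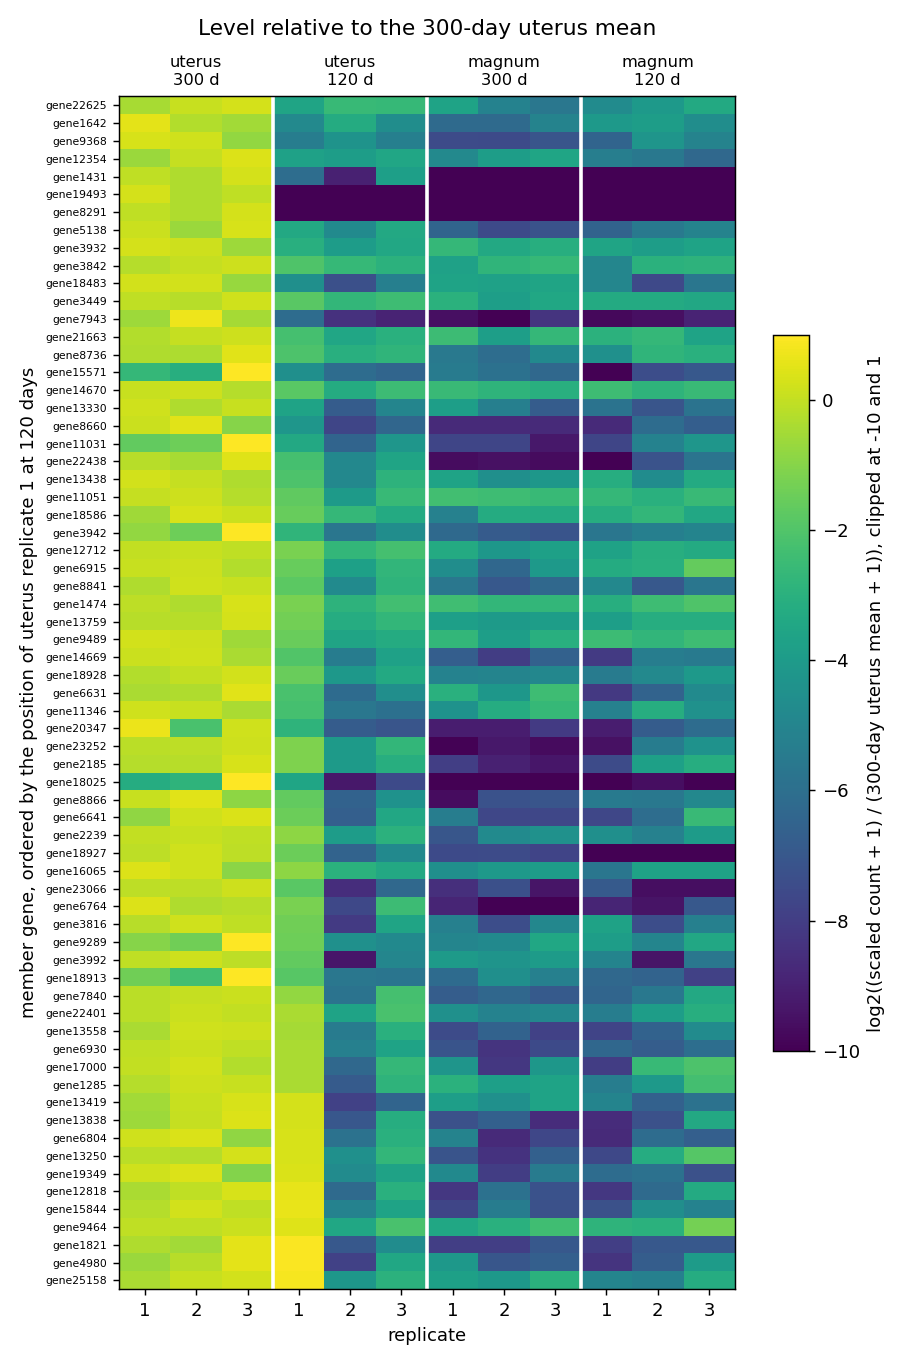
Level of each of the 67 genes (rows) in the 12 libraries (columns), as log2 of the scaled count plus 1 over the 300-day uterus mean plus 1, ordered by how far uterus replicate 1 at 120 days stood toward the 300-day uterus. The 300-day uterus columns are light in most rows, with replicates 1 and 2 darker for a few genes such as gene18025 and gene15571, replicate 1 of the 120-day uterus shades from dark at the top to light at the bottom, and the other columns stay darker in nearly all rows.

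The members spanned a wide range of levels, with a 300-day uterus mean of 202 to 257501 scaled counts and a median of 2575. At least 10000 scaled counts were reached by 21 of the 67, where 0.88% of all genes tested did so. The rule itself asked for a high 300-day uterus level, so part of this excess is built in. The most abundant, gene8291, had 249439, 208999 and 314064 scaled counts in the 300-day uterus and 124, 69 and 38 in the 120-day uterus. Its values were 172, 227 and 201 in the 300-day magnum and 0 in each 120-day magnum library. The 300-day uterus mean was 3344 times the 120-day uterus mean and 1288 times the 300-day magnum mean. All 3 uterus libraries at 120 days were at the low end for this gene, replicate 1 included.

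A different course was seen for gene18927, which had 230623, 283874 and 231383 scaled counts in the uterus at 300 days and 90244, 2781 and 9050 at 120 days. In the magnum it had 1351, 1390 and 1157 at 300 days and 16, 47 and 48 at 120 days. Uterus replicate 1 at 120 days already held 36.3% of the 300-day mean, and the 2 magnum ages did not overlap. For gene13558 the uterus libraries held 147192, 222722 and 215345 at 300 days and 139125, 4552 and 23791 at 120 days, so that replicate 1 came to 71.3% of the 300-day mean. Its magnum values of 1083, 2065 and 837 at 300 days overlapped those of 900, 2073 and 7458 at 120 days.

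The other 5 of the 8 most abundant members also had their highest 120-day uterus value in replicate 1. The uterus held 105360, 107810 and 129850 scaled counts of gene23252 at 300 days, and 52448, 7199 and 17480 at 120 days. In the magnum this gene had 117, 180 and 140 at 300 days and 154, 2745 and 5385 at 120 days, with replicate 1 at the 300-day level and replicates 2 and 3 well above it. For gene22438 the values were 58802, 48855 and 93724 in the 300-day uterus, 14022, 2283 and 5693 in the 120-day uterus, 83, 92 and 80 in the 300-day magnum, and 11, 461 and 1233 in the 120-day magnum. Again magnum replicate 1 at 120 days was lowest.

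Replicate 2 stood out instead for gene3992. It had 100408, 115589 and 97577 scaled counts in the 300-day uterus, 33661, 159 and 3355 in the 120-day uterus, 6547, 5324 and 6751 in the 300-day magnum, and 3187, 154 and 2096 in the 120-day magnum. At 120 days replicate 2 was thus the lowest library in both segments, at nearly equal values. Smaller contrasts marked gene12712, with 300-day means of 47011 ± 2306 in the uterus and 3657 ± 1182 in the magnum, and gene22401, with 25753 ± 2094 and 922 ± 214 (SD, n = 3 each). At 120 days gene12712 averaged 12313 ± 6789 in the uterus and 4696 ± 925 in the magnum, and gene22401 averaged 9103 ± 9091 and 1797 ± 1181 (SD, n = 3 each).

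**Figure D2:**
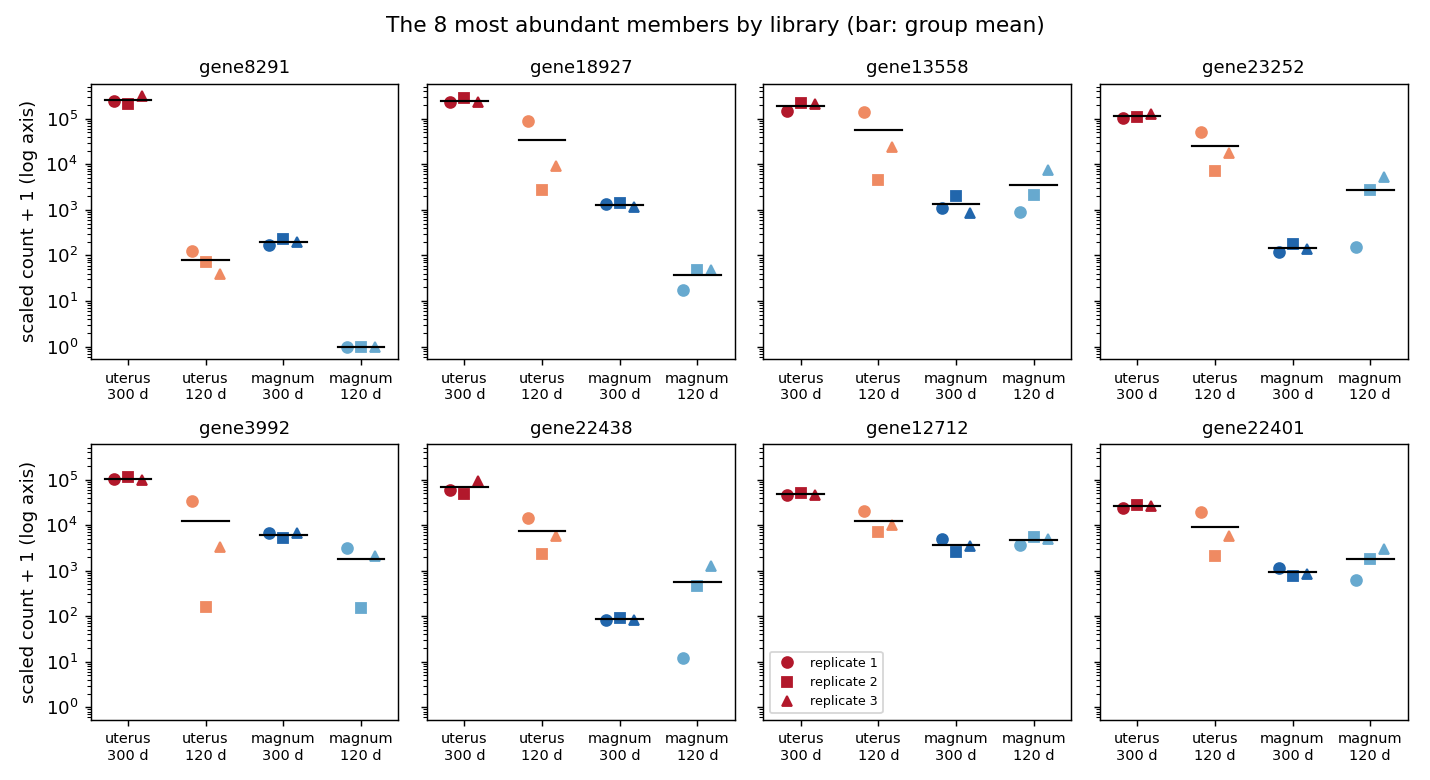
Scaled count plus 1 (log axis) of the 8 most abundant members in each library by group, with symbols for replicates and a bar at the group mean. Uterus replicate 1 at 120 days (circle) is highest of its group in all 8 panels, and gene8291 alone among them lies at 124 or below in all 3 libraries of that group.

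The order changed on the deposited FPKM scale, which is not simply the scaled count over the listed gene length. In the 300-day uterus gene9368 averaged 21036 scaled counts and 575 FPKM at a listed 6186 bases. There gene23252 averaged 114340 scaled counts and 721 FPKM at 5593 bases. How length entered the FPKM is not given in the sources used here. On this scale gene18927 (1139 bases) led at 13502 ± 1890 in the 300-day uterus. It was followed by gene13558 (1158 bases) at 6627 ± 1452, gene8291 (3000 bases) at 3654 ± 854, gene19493 (775 bases) at 1641 ± 340 and gene12712 (1353 bases) at 1571 ± 81.3 (FPKM, SD, n = 3 each). The last 2 do not separate beyond their spread. The lowest level was that of gene6641, at 1.33 FPKM. Gene length was not used by the rule, and the members did not stand apart by it: their median was 4415 bases, with a range of 636 to 18605, against 3973 bases for the 9489 numbered genes with the same minimum level in the 300-day uterus. Consecutive identifier numbers occurred in 2 pairs, gene18927 with gene18928 and gene14669 with gene14670, and what the numbering stands for is not given in the sources used here.

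Uterus replicate 1 at 120 days was left free by the rule, and the members differed widely in how far it stood toward the 300-day uterus. A position was computed on the log2(scaled count + 1) scale, with 0 at the mean of replicates 2 and 3 and 1 at the mean of the 300-day uterus. The median position of replicate 1 was 0.60, with a range of -0.37 to 1.25, and its median level was 32.2% of the 300-day mean. It was the highest of the 3 libraries for 61 of the 67 members, as for 27.5% of all genes tested. It was at least 4 times the higher of the other replicates (plus 1) for 30 members, as for 1.41% of all genes tested. Since the rule held replicates 2 and 3 low and not replicate 1, part of this is built in. Applying the same rule with another library left free gave far fewer genes: 14 with replicate 2 free and 17 with replicate 3 free. The free library then had a median position of -0.17 for replicate 2 and 0.04 for replicate 3. Its position was at least 0.75 in 0 genes of either list, against 23 of the 67 for replicate 1. All 14 genes of the replicate 2 list, and 14 of the 17 of the replicate 3 list, were members low in all 3 uterus libraries at 120 days. The low positions in these lists therefore largely restate that.

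**Figure D3:**
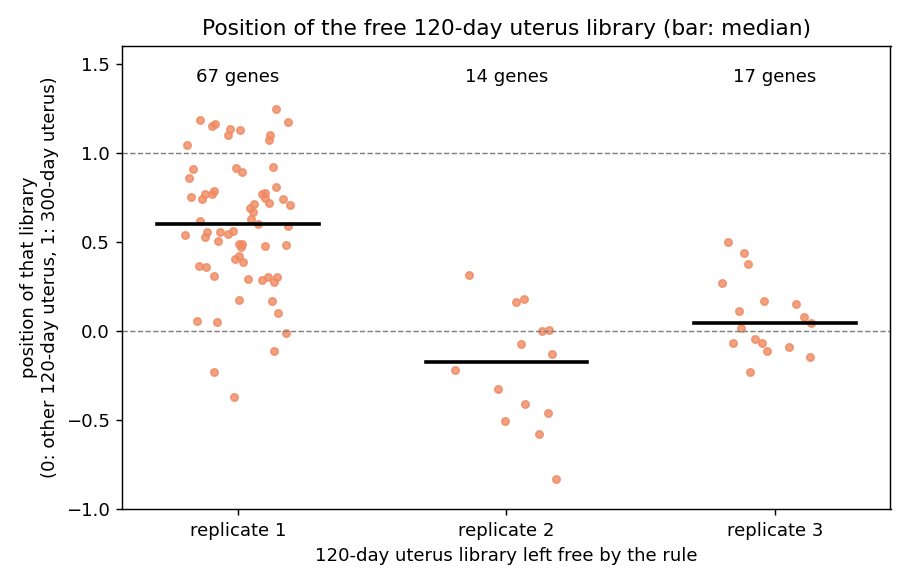
Position of the 120-day uterus library that the rule leaves free, one point per gene, for the rule with replicate 1, 2 or 3 free; 0 is the mean of the other 120-day uterus libraries, 1 is the 300-day uterus mean and the bar is the median. Replicate 1 spreads up to and above 1 with a median of 0.60, while replicate 2 ranges from -0.83 to 0.32 and replicate 3 from -0.23 to 0.50.

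Replicates 2 and 3 were not alike either. Replicate 3 was above replicate 2 for 53 of the 67 members, where 51.3% of all genes tested had that order. The full order of replicate 1 over 3 over 2 was found for 50 members, as for 16.9% of all genes tested. Their ratio also differed among members: for the 23 genes with a replicate 1 position of at least 0.75, replicate 3 had a median of 5.23 times replicate 2. This ratio was 1.99 for the 35 genes at positions of 0.25 to 0.75 and 0.987 for the 9 genes below 0.25. These ranges were set after the values were seen and are descriptions, and the position itself is computed from replicates 2 and 3. The rule also used replicates 2 and 3, so the counts of their order describe chosen genes and carry no further weight.

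At the low end, 9 members had a position below 0.25 in replicate 1. Besides gene8291 this group held gene19493, with 28559, 19013 and 22495 scaled counts in the 300-day uterus, 7, 5 and 3 in the 120-day uterus, 20, 18 and 21 in the 300-day magnum, and 0 in all 120-day magnum libraries. Replicate 1 held 0.030% of the 300-day mean for gene19493 and 0.048% for gene8291. Another of the 9, gene9368, had 26206, 24588 and 12313 in the uterus at 300 days and 523, 1032 and 550 at 120 days. For gene1431 the uterus values were 3377, 2845 and 4317 at 300 days and 52, 6 and 256 at 120 days, where replicate 3 and not replicate 1 was highest. The lowest position, -0.37, was that of gene22625, at 1033, 1468 and 1730 in the uterus at 300 days and 119, 233 and 230 at 120 days. Replicate 1 showed no advance over the other 120-day libraries for gene9368 or gene22625. A rule that held all 3 uterus libraries at 120 days low kept 14 of the 67 genes. By 300-day uterus mean, the first 8 of these 14 were gene8291, gene19493, gene18483, gene9368, gene3932, gene7943, gene5138 and gene1431.

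At the high end, 23 members had a position of at least 0.75. For 7 of the 67 (10.4%) replicate 1 at 120 days exceeded all 3 uterus libraries at 300 days, against 33.7% of all genes tested. The rule asked for high 300-day uterus values, which works against such cases. Outside the 8 most abundant members and above a 300-day mean of 1000, the highest positions were those of gene25158, gene4980, gene13419 and gene1285. The uterus values of gene25158 were 850, 1190 and 1350 at 300 days and 2031, 62 and 146 at 120 days. Those of gene4980 were 1033, 1421 and 2399 at 300 days and 3086, 6 and 148 at 120 days. For gene13419 they were 1463, 2225 and 2644 at 300 days and 2561, 8 and 23 at 120 days, within the 300-day range. For gene1285 they were 9341, 12268 and 11612 at 300 days and 8405, 96 and 1522 at 120 days. In each of the 4, replicate 1 alone among the 120-day libraries reached or approached the 300-day level, and replicate 2 had the lowest value of the group.

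The members were also uneven among the 300-day uterus libraries, where the rule set a floor and no ceiling. The highest library was at most 2 times the lowest for 47 of the 67, against 83.1% of all genes tested. The median ratio of highest to lowest was 1.59 over the members. It was 1.22 over the 9489 numbered genes with a 300-day uterus mean of at least 200. Replicate 3 was at least 4 times both others for 5 members, as for 0.907% of all genes tested. These 5, named because their values stood out, were gene18913, gene18025, gene15571, gene11031 and gene9289. The largest of them, gene18913, had 5635, 2973 and 36156 scaled counts, and gene18025 had 337, 429 and 8597. In the same 2 genes uterus replicate 1 at 120 days stood at 4130 and 266, near the lower 300-day libraries. In the opposite direction, replicate 3 was below both others by a factor of 1.5 or more for 9 members, as for 7.34% of all genes tested. Among these were gene9368, given above, gene18483 with 26401, 26189 and 13432, gene3932 with 18806, 16943 and 10138, and gene16065 with 19911, 17018 and 7929.

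**Figure D4:**
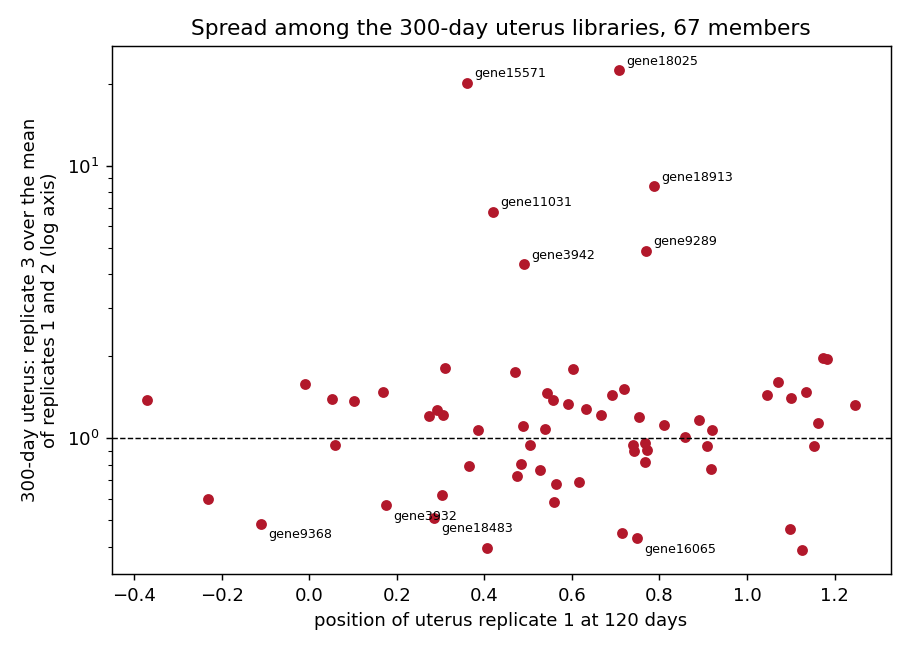
Ratio of uterus replicate 3 at 300 days to the mean of replicates 1 and 2 (log axis) against the position of uterus replicate 1 at 120 days, for the 67 members. Most lie between 0.5 and 2 on the vertical axis, 6 stand above 4, and gene9368, gene18483, gene3932 and gene16065 lie near or below 0.57.

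The uterus was then compared with the magnum at 120 days, since the rule did not use the 120-day magnum. A limma fit of all 12 libraries on log2(scaled count + 1) was made over the 14883 genes that reached 10 scaled counts in 3 or more libraries, with Benjamini-Hochberg adjustment and a threshold of 0.05. All 67 members passed this filter, which their 300-day uterus values alone ensured. At 120 days, 4 of the 67 were higher in the uterus and 0 were lower, where 0.242% and 0.376% of all genes tested were. At an unadjusted p below 0.05, 30 were higher and 0 lower, where 4.7% and 4.92% of all genes tested were. The rule held uterus replicates 2 and 3 below the 300-day uterus, which works against calls toward the uterus here. It also kept only genes higher in the 300-day uterus than in the 300-day magnum, which can favour such calls. The counts are therefore descriptions of chosen genes. The median log2 difference over the members was 1.76, or 1.58 over the 64 not listed at 0 in all 120-day magnum libraries, against -0.01 over all genes tested, and it was 0.81 without uterus replicate 1 at 120 days. In 19 members all 3 uterus libraries were above the 3 magnum libraries, as in 5.78% of all genes tested. Uterus replicate 1, whatever the level of replicates 2 and 3, was above the 3 magnum libraries in 64 members. That held for 27.6% of all genes tested. These 64 include the 19, and the exceptions were gene9368, gene22625 and gene1642.

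The 4 genes called higher in the 120-day uterus were gene18927, gene8291, gene19493 and gene1431. For gene18927 the log2 difference was 8.59 ± 0.92 (SE, limma, adjusted p = 0.00238), with the uterus above the magnum in all libraries. The other 3 were listed at 0 in the 120-day magnum, so no fold is given (limma, adjusted p = 1.8e-05 for gene8291, 0.0108 for gene19493 and 0.0309 for gene1431). A fit of the 6 libraries alone called 0 members in either direction, where 0.0134% of all genes tested were higher. In that fit 22 members were higher and 0 lower at an unadjusted p below 0.05, as were 3.36% and 3.75% of all genes tested. With a block for the pairs of equal number within an age, 8 members were higher, as were 0.726% of all genes tested. Leaving out uterus replicate 2 of that age gave 10 higher members, with 0.437% of all genes tested. Leaving out replicate 1 of both segments gave 2, with 0.0941% of all genes tested, and a median difference of 0.36. The call of gene1431 was lost when any library other than magnum replicate 1 at 300 days or uterus replicate 2 at 120 days was left out (adjusted p = 0.0507 to 0.127), and that of gene19493 without replicate 1 of both segments (0.0581). With FPKM values and a pseudocount of 1 the calls of gene8291, gene19493 and gene1431 were lost (adjusted p = 0.0799, 0.357 and 0.401), and with a pseudocount of 10 those of gene19493 and gene1431 (0.483 and 0.165). That of gene1431 was also lost with no filter on low values (0.126), with FPKM values and a pseudocount of 0.1 (0.132) and with the replicate number as a block across both ages (0.051).

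In the magnum few members passed the test between the ages. At 300 days 6 of the 67 were higher and 6 lower than at 120 days (limma, adjusted p below 0.05), where 12.1% and 13.6% of all genes tested were. The share called was near or under that of all genes in each direction. The median log2 change over the members was -0.42, or -0.46 over the 64 not listed at 0 at 120 days, against -0.03 over all genes tested. It was -0.16 without magnum replicate 3 at 120 days and -0.20 without replicate 2 at 300 days. The median moved the other way without replicate 1, to -0.61 at 120 days and -0.52 at 300 days. Without replicate 2 at 120 days it was -0.41, and without replicate 3 at 300 days -0.46. The 3 libraries at 300 days were all above those at 120 days in 11 members and all below in 8, as in 18.7% and 20.5% of all genes tested. The rule capped the 300-day magnum, which favours falls over rises.

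Among the 6 rises, the largest with a measurable starting level was that of gene18927, given above by library, whose log2 change was 5.24 with an SE of 0.92 (limma, adjusted p = 0.00253). For gene8291 and gene19493, listed at 0 at 120 days, no fold is given (adjusted p = 1.47e-06 and 7.85e-05). The magnum values of gene18483 were 1804, 1690 and 1868 at 300 days and 714, 115 and 423 at 120 days, which gave a log2 change of 2.45 with an SE of 0.71 (adjusted p = 0.0264). For gene6631 the values were 1285, 569 and 1921 against 35, 114 and 390, with a log2 change of 3.26 and an SE of 0.97 (adjusted p = 0.0296). For the low gene12354 they were 13, 26 and 33 against 9, 7 and 4 (adjusted p = 0.0225). The groups did not overlap for any of these 6. The 300-day magnum stood at 0.0777% of the 300-day uterus mean for gene8291, 0.0842% for gene19493 and 0.523% for gene18927, against 12.2% for gene6631 and 8.12% for gene18483. Over the 67 members this percentage had a median of 2.08 and ranged up to 18.5, and it was below that of gene8291 in 5 members, gene8660, gene18025, gene1431, gene6764 and gene20347. Any part of uterus material or reads in the low magnum values was not tested.

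Of the 6 falls, the largest was that of gene2185, with 83, 40 and 31 scaled counts in the 300-day magnum against 116, 1563 and 2389 in the 120-day magnum, and a log2 change of -3.98 with an SE of 0.98 (limma, adjusted p = 0.0133). The fall of gene23252 was -3.19 ± 1.05 (SE, adjusted p = 0.0444), with replicate 1 at 120 days inside the 300-day range. This call was lost with the replicate number as a block, both within age (adjusted p = 0.0729) and across ages (0.0578). For gene9368 the magnum held 117, 113 and 152 at 300 days against 236, 1094 and 628 at 120 days, and the log2 change was -2.10 with an SE of 0.49 (adjusted p = 0.0102). The other falls were those of gene8736, gene6915 and gene1642, at 2 to 25 scaled counts in the 300-day magnum libraries (adjusted p = 0.0143, 0.0279 and 0.0333). Of the 9 members with a uterus replicate 1 position below 0.25, 2 were among the falls, gene9368 and gene1642, and 3 were among the rises. No link between the segments is read from this.

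**Figure D5:**
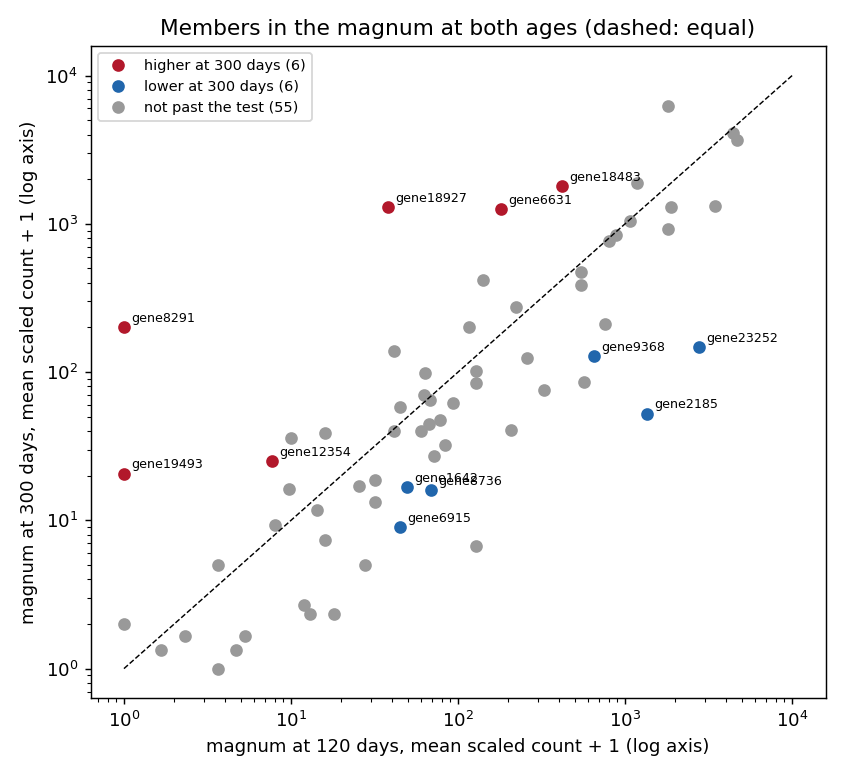
Mean scaled count plus 1 of the 67 members in the magnum at 300 days (vertical, log axis) against 120 days (horizontal, log axis), coloured by the limma call; the dashed line marks equal levels. The 6 genes called higher lie above the line and the 6 called lower below it, with 55 not past the test.

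Replicate 1 of the 120-day magnum was the lowest of its group for 38 of the 67 members, as for 39.5% of all genes tested, and replicate 3 was the highest for 37, as for 26.7%. In 35 members replicate 1 was highest in the uterus and lowest in the magnum at 120 days, as in 6.79% of all genes tested. The uterus part of this held for 61 members and is partly built into the rule. No link between the segments is therefore read from the joint count. The median ratio of magnum replicate 1 to the mean of replicates 2 and 3 was 0.462 over 64 members, and 0.265 among those with a uterus position of at least 0.75.

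The calls in the magnum rested partly on single libraries. Without replicate 3 at 300 days 3 members rose and 5 fell, where 11.3% and 12.2% of all genes tested did. Without replicate 2 at 300 days 4 rose and 2 fell, against 7.46% and 9.35% of all genes. Without replicate 2 at 120 days the counts were 3 and 1, against 6.4% and 7.85%, and without replicate 3 at 120 days they were 4 and 1, against 5.35% and 6.69%. They were 7 and 14 when replicate 1 of each segment at 120 days was left out, against 13.5% and 16.1% of all genes. The calls of gene8291, gene19493, gene18927 and gene9368 held in all 23 alternatives. That of gene2185 was lost without replicate 2 or 3 at 120 days (adjusted p = 0.0547 and 0.064), and those of gene8736 and gene6915 were lost without either of these libraries or replicate 2 at 300 days (0.0518 to 0.125). The call of gene18483 was lost without any magnum library except replicate 1 at 120 days (0.0596 to 0.0978), that of gene6631 without replicate 1 or 3 at 300 days or replicate 1 or 2 at 120 days (0.0714 to 0.0888), and that of gene12354 without replicate 2 or 3 of either age (0.0543 to 0.0979). The calls of gene23252 and gene1642 were lost when leaving out 9 and 6 of the 12 libraries in turn, including in both cases magnum replicates 1 and 2 at 300 days and 2 and 3 at 120 days (0.0517 to 0.181). With no filter on low values the calls of gene18483, gene6631, gene6915, gene1642 and gene23252 were lost (0.0607 to 0.107), and with FPKM values and a pseudocount of 1 those of gene12354, gene8736, gene6915, gene1642 and gene23252 (0.0687 to 0.838). Division by column totals ended those of gene18483, gene6631 and gene12354 (0.197 to 0.938). A fit of the 6 magnum libraries alone ended those of gene12354, gene8736, gene6915, gene1642 and gene23252 (0.0645 to 0.107), and a pseudocount of 10 those of gene12354 and gene1642 (0.051 and 0.055). FPKM values with a pseudocount of 0.1 ended those of gene23252 and gene1642 (0.0524 and 0.582).

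At the threshold of the rule, the members just inside the 4-fold limit were gene1474, at 4.01, and gene22401, at 4.05, and the genes just outside were gene8674, at 3.98, and gene8667, at 3.89. Just inside the level of 200 were gene6641, with a 300-day uterus mean of 202, and gene9289, with 219, and just outside were gene25925, with 186, and gene9502, with 164. The member with the highest magnum level outside the 8 most abundant was gene1474, with 4785, 3710 and 3719 scaled counts in the 300-day magnum and 2877, 4532 and 5945 in the 120-day magnum. It was followed at 120 days by gene13759 with a mean of 1891 ± 464, gene2185 with 1356 ± 1151 and gene3932 with 1185 ± 134, and at 300 days by gene3932 with 1894 ± 458, gene18483 with 1787 ± 90.2 and gene13759 with 1298 ± 96.5 (SD, n = 3 each). The neighbours in either order differed by less than their spread, except gene1474 from the next gene at both ages and gene18483 from gene13759 at 300 days.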

How the data were processed

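Per the labels' protocols, a Smarter kit for mRNA-seq was used for the 12 oviduct samples. The submitters' processing notes name Cufflinks 2.0.2, GATK 3.8, TopHat2 2.0.8, Trimmomatic 0.32 and FastQC 0.11.6, with no role for any of them. Genome build, annotation and read counting were not given in the sources used here, and genes that share reads could not be identified. The deposited whole numbers were treated as a score, that is scaled counts, because median-of-ratios size factors lay between 0.974 and 1.013 while column totals differed widely. In 4 magnum libraries values fell on steps (1 read being worth 1.167 to 2.372), from which reads were estimated. In the other libraries the worth of 1 read is not known, and a value of 0 may still hide a read there. FPKM values for the same genes were deposited by the authors in another table.

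Members were found by script, and the members, lists and ranges were chosen with earlier results of these data known. Genes were named by level, position and magnum level among members, or because they passed a test. The test was limma 3.58.1 (R 4.3.3), moderated with a mean-dependent prior, two-sided, on log2(value + 1); fold changes on this scale understate the change of low genes. The test was also run on simulated independent normal values, with no pairing of libraries and no choice of members. That run cannot show how the test behaves on genes chosen as these were. Descriptions used Python 3.11.15, pandas 2.3.3 and NumPy 2.4.6. A list of shell gland genes was not used, as no identifier carries a symbol.

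Labels give replicate numbers 1 to 3 in each group. At 120 days same-numbered uterus and magnum libraries deviated together (correlations of deviations from group means over genes 0.361, 0.591 and 0.39). Libraries of different number had correlations of -0.398 to 0.0381. The numbers were therefore taken to pair the 120-day samples. At 300 days the signs were alike but the values weaker, 0.198, 0.216 and 0.0838 for equal and -0.18 to -0.0164 for different numbers. The block within age paired equal numbers at both ages. The main fit, which gave the SEs and adjusted p-values of the named genes, held no term for these pairs. Fits with a block were run as alternatives only. Alternatives changed the pseudocount, filter, scaling, unit, libraries and block. The fits without replicate 1 of both segments were added after seeing the data.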

Additional observations from a re-analysis of the deposited data

Results flagged for a closer look

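For 8 members the 3 magnum libraries at 300 days were all below those at 120 days while the 3 uterus libraries at 300 days were all above those at 120 days, so that the age changes of the segments ran in opposite directions; 1.25% of all genes tested had this pattern, and 20.5% had the magnum part of it. The rise over uterus replicates 2 and 3 was fixed by the choice of genes, so nothing is read from the 1.25%, and the difference between the segments was not tested. The magnum log2 changes were -3.98 for gene2185, -2.69 for gene8866, -2.39 for gene6915, -2.10 for gene9368, -2.03 for gene8736, -1.64 for gene1642, -1.43 for gene3942 and -1.30 for gene6930. Of these, the changes of gene8866, gene3942 and gene6930 did not pass the limma test in the magnum (adjusted p = 0.0704, 0.158 and 0.301).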

How the results depend on the processing

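The number of members was 197 with a 2-fold and 22 with an 8-fold limit. It was 14 with all 3 uterus libraries at 120 days held low, 14 with replicates 1 and 3 held low and 17 with replicates 1 and 2 held low. With columns divided by their total 93 genes met the rule, and 57 of the 67 members were among them. The position of uterus replicate 1 was 0.53 with FPKM values and 0.56 with the 2-fold limit, and that of the free library was -0.17 and 0.043 when replicate 2 or 3 was left free.

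Members higher in the magnum at 300 days numbered 3 after division by column totals, where 0.9% of all genes tested were higher, and 3 to 7 when single libraries were left out. Members lower there numbered 3 with no filter, 2 with FPKM values and a pseudocount of 1, 3 when only the magnum groups were fitted, 32 after division by column totals (where 83.1% of all genes tested were lower), 1 to 9 when single libraries were left out, and 14 once replicate 1 of each segment at 120 days was out. That division shifted the median of all genes by -1.79, and the median change of the members was then -2.05. With FPKM values the median change of the members was -0.053 at a pseudocount of 1 and -0.26 at a pseudocount of 0.1. Members higher in the uterus at 120 days numbered 2 with a pseudocount of 10, 1 with FPKM values and a pseudocount of 1, 0 with the 6 libraries alone, 8 with the replicate block within age, 3 to 10 when single libraries were left out, and 2 without replicate 1 of both segments; 0 were lower in any of these fits. The median difference at 120 days was 0.36 without replicate 1 of both segments. With a replicate block across all libraries, 3 members were higher in the uterus at 120 days, and 6 were higher and 6 lower in the magnum at 300 days; the block within age gave 6 and 5 there. For these shifts the cause was not tested. No call of a single member changed direction in any alternative. The unknown depth of 8 libraries limits what a listed 0 or a value of a few scaled counts can show.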

Other observations

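Among the 1579 new-gene loci, which the choice of members left out, 7 met the same limits. The highest of them had 611, 626 and 507 scaled counts in the 300-day uterus, 109, 0 and 0 in the 120-day uterus, 2, 0 and 1 in the 300-day magnum, and 0 in each 120-day magnum library. In this locus, as in 61 of the 67 members, uterus replicate 1 was the highest of the 120-day uterus libraries. In 1 of the 7 loci, with 101, 260 and 245 scaled counts in the uterus at 300 days and 383, 0 and 4 at 120 days, replicate 1 exceeded all 300-day libraries.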
